A study of Macaca fascicularis with 4 samples.

Results

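The comparison set the liver of the cynomolgus monkey (Macaca fascicularis) against 2 white fat depots, labelled oWAT and sWAT. These are 3 of the 4 tissue libraries of the series; the muscle library was left out. Each library was made from total RNA that had been pooled from 5 monkeys and read as full-length cDNA on the PacBio Sequel II, so each tissue has 1 library and no replicates. The labels name the tissue alone; WAT stands for white adipose tissue in common use, and the sources used here do not give sex, age or diet. The series concerns transcripts in tissues under nutrient regulation, and the gene counts allow a comparison of tissues. A direction counted only where liver differed the same way from oWAT and from sWAT; both contrasts use the same liver library and are not independent.

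Liver and white fat divide the handling of fat between them. Hepatocytes package triglyceride into lipoproteins for export, oxidize fatty acids, make ketone bodies and bile acids, and secrete most proteins of the blood plasma. Adipocytes take up fatty acids that lipoprotein lipase frees from those particles, store them in a large lipid droplet, release them by lipolysis and secrete hormones, within a collagen-rich stroma of fibroblasts and vessels.

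Gene counts came to 437587 for liver, 396797 for oWAT and 383896 for sWAT. A gene was tested where its counts over the 3 libraries summed to at least 10, which left 9348 genes. Counts were scaled to the library total and are given as CPM, the usual unit of such scaling, and each ratio of liver to a fat library was given an exact 95% interval from the 2 counts. A gene was called where that interval lay wholly past 2-fold in the same direction against both fat libraries. Where 1 side had 0 counts, the fold was taken against a floor of 3 counts and is written "at least"; it is not an interval bound. Where a single fold is given for a called gene, it is the smaller of the pair. All intervals cover counting error alone and not the spread between animals, and no p-values can be given with 1 library per tissue. A lower value in a tissue can mean fewer cells of a type or less RNA per cell, and these cannot be told apart here.

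By this rule 583 genes (6.24% of those tested) were higher in liver and 1175 (12.6%) were higher in both fat libraries. The liver set held 57.1% of all counts in liver (57.0 to 57.2, an exact binomial interval at 95%), 2.74% of the oWAT counts (2.69 to 2.79) and 1.88% of the sWAT counts (1.83 to 1.92). The fat set held 4.18% of the liver counts (4.12 to 4.24), 38.2% in oWAT (38.0 to 38.3) and 46.5% in sWAT (46.3 to 46.6). On the liver side 220 of the called genes had 0 counts in both fat libraries, and on the fat side 229 had 0 counts in liver. The 9348 genes had a median log2 ratio of liver to oWAT of -0.99 and of liver to sWAT of -0.77, so that a gene at the median lay below fat when scaled to the total. The TMM factors of edgeR (trimmed mean of M-values) moved these medians to -0.092 and -0.047, and DESeq2's size factors moved them to -0.051 and -0.023. Liver calls were 33.2% of all calls with the library total, 61.0% with TMM and 61.4% with DESeq2 scaling. All 583 liver calls were also made with both other scalings, which called 839 (8.98%) and 849 (9.08%) genes. Of the 1175 fat calls, 537 (5.74%) were made with TMM and 533 (5.70%) with DESeq2 scaling, with no others added. List medians below should be read against those of all genes. For a gene named below, a fat call that the other scalings did not make is given as such. List counts are those with the library total unless another scaling is stated.

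**Figure D1:**
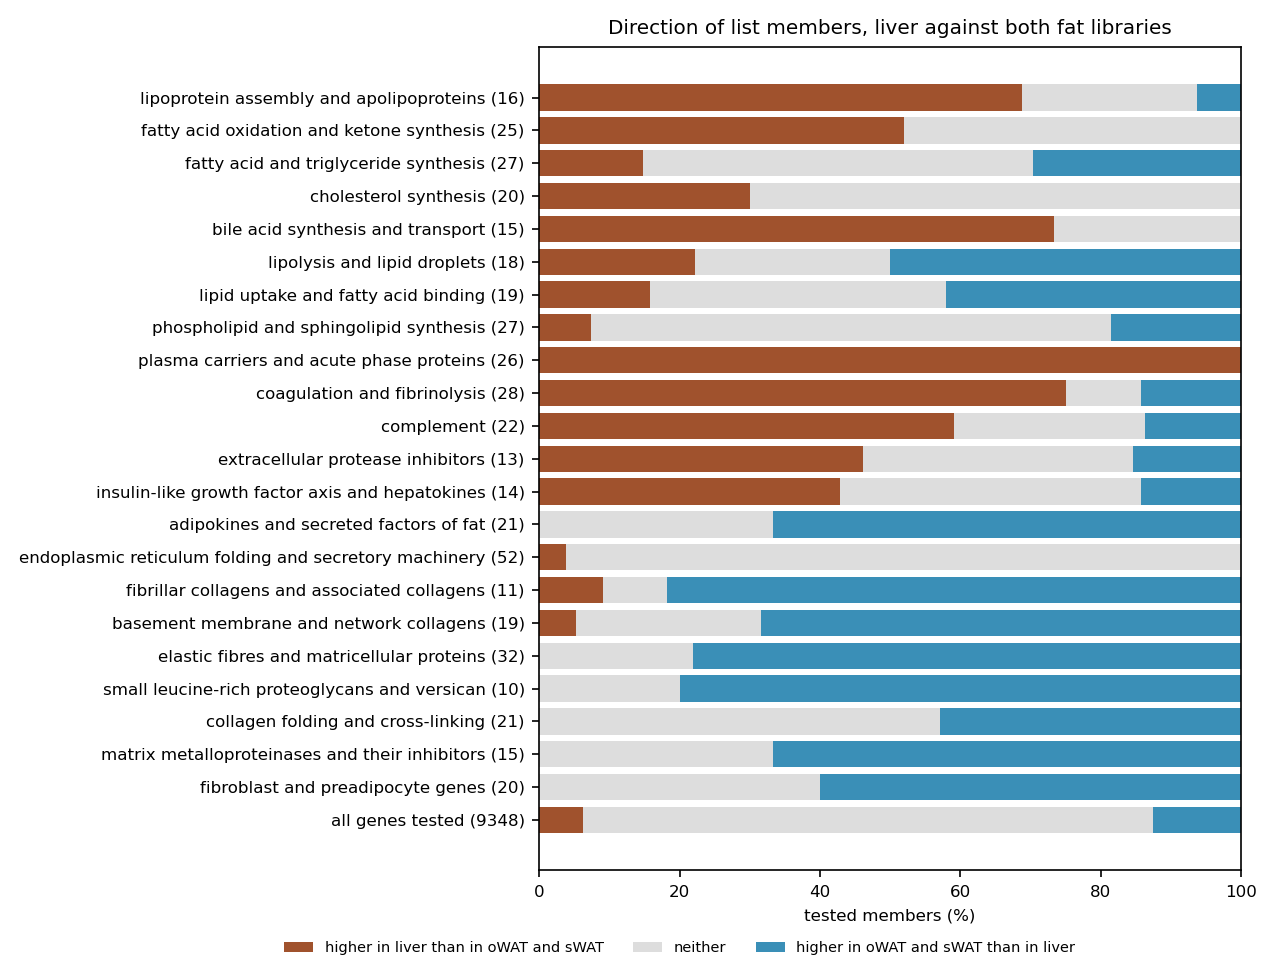
Share of the tested members of each gene list (number tested in brackets; x axis in percent) that were higher in liver than in both fat libraries, higher in both fat libraries, or neither, with library-total scaling. All 26 tested plasma carrier and acute phase genes lay on the liver side, and 50 of 52 genes of the secretory machinery on neither. Most tested members of each stromal list lay on the fat side, except for collagen folding and cross-linking, with 12 of 21 on neither. The lowest bar shows all 9348 genes.

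The labelled tissues carried their own markers. All 11 tested hepatocyte markers were higher in liver, and the whole list summed to 169390 CPM in liver, 12.6 in oWAT and 2.60 in sWAT; 9 listed markers were at 0 in oWAT and 11 in sWAT. Of 12 tested adipocyte markers 11 were higher in fat (10 with either other scaling). The list summed to 247 CPM in liver, 9441 in oWAT and 10276 in sWAT. PDE3B, a phosphodiesterase of insulin signalling, was the exception with 78 counts in liver, 40 in oWAT and 75 in sWAT (178, 101 and 195 CPM). The mesothelial list summed to 144 CPM in liver, 4329.7 in oWAT and 41.7 in sWAT, with 0 of 10 tested markers called in either direction. Of the listed mesothelial markers 9 were at 0 in sWAT, 4 in liver and 1 in oWAT. The 10 T and natural killer cell markers summed to at most 35.3 CPM in any of the 3 libraries, and the 7 erythroid markers to at most 57.3 CPM. Those of B and plasma cells summed to 18.3 CPM in liver, 144 in oWAT and 20.8 in sWAT, led in oWAT by JCHAIN, the joining chain of secreted antibody, with 6 counts in liver, 52 in oWAT and 3 in sWAT (13.7, 131 and 7.81 CPM). Markers of B and plasma cells (1 tested), neutrophils and mast cells (2 tested), skeletal muscle fibres (2 tested) and Schwann cells (2 tested) gave 0 calls in either direction.

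Lipid genes fell on both sides. Over 8 lists with 199 members, 167 were tested. Of these 54 (32.3%) were higher in liver and 31 (18.6%) in both fat libraries, beside 6.24% and 12.6% of all genes tested. TMM and DESeq2 scaling each called 74 for liver and 22 for fat. Of all genes they called 8.98% and 9.08% for liver, and 5.74% and 5.70% for fat. Every call in the lists of fatty acid oxidation, cholesterol and bile acids was for liver, as were 11 of 12 calls among lipoprotein genes. Of the uptake and binding genes 8 of 19 were called for fat and 3 for liver, and of the droplet and lipolysis genes 9 of 18 for fat and 4 for liver.

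Lipoprotein genes were led by the apolipoproteins of liver. APOB, around which each VLDL particle is built, had 2934 counts in liver, 0 in oWAT and 0 in sWAT (6705, 0 and 0 CPM). MTTP, which loads lipid onto APOB in the endoplasmic reticulum, had 213 counts in liver, 1 in oWAT and 1 in sWAT (487, 2.52 and 2.60 CPM) and was 193-fold (34.3 to 7664) over oWAT and 187-fold (33.2 to 7415) over sWAT. APOA5, an activator of triglyceride clearance, had 402 counts in liver, 0 in oWAT and 0 in sWAT (919, 0 and 0 CPM). None of these 3 had more than 1 count in either fat library. Of 16 tested genes 11 were higher in liver, with a median log2 ratio of 6.19 to oWAT and 6.14 to sWAT (3.68 and 3.90 with zeros at the floor). PLTP, which transfers phospholipid between lipoproteins, was the only list member higher in fat, with 3 counts in liver, 89 in oWAT and 77 in sWAT (6.86, 224 and 201 CPM), or 32.7-fold (10.8 to 162) higher in oWAT and 29.3-fold (9.64 to 145) higher in sWAT. APOE had 428 counts in liver, 103 in oWAT and 202 in sWAT (978, 259.6 and 526 CPM) and was called for liver with the other scalings alone. CETP, the cholesteryl ester transfer protein, lay between the fat depots at 14 counts in liver, 7 in oWAT and 19 in sWAT (32.0, 17.6 and 49.5 CPM).

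Fatty acid oxidation and ketone synthesis had calls on the liver side alone. EHHADH, a bifunctional enzyme of peroxisomal oxidation, had 506 counts in liver, 14 in oWAT and 13 in sWAT (1156, 35.3 and 33.9 CPM) and was 32.8-fold (19.4 to 60.4) over oWAT and 34.1-fold (19.8 to 64.6) over sWAT. ACAD11, an acyl-CoA dehydrogenase, was 9.04-fold (7.15 to 11.6) over oWAT, ACAA2, the last step of mitochondrial oxidation, 5.82-fold (4.47 to 7.70) over oWAT, and ACAA1, its peroxisomal counterpart, 7.13-fold (4.15 to 13.1) over oWAT. Other members differed by less. CPT1A, which moves fatty acids towards mitochondria, had 99 counts in liver, 36 in oWAT and 24 in sWAT (226, 90.7 and 62.5 CPM). HADHA, of the mitochondrial trifunctional protein, had 266 counts in liver, 145 in oWAT and 101 in sWAT (608, 365 and 263 CPM). HADH, a dehydrogenase of shorter chains, had 101 counts in liver, 79 in oWAT and 66 in sWAT (231, 199 and 172 CPM). These 3 were not called, though CPT1A and HADHA were called for liver with the other scalings. In all, 13 of 25 tested genes were higher in liver and 0 in fat, with a median log2 ratio of 1.57 to oWAT and 2.0 to sWAT; either other scaling called 20.

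Most bile acid genes were at or near 0 in fat. Of 15 tested genes 11 were higher in liver and 0 in fat, with a median log2 ratio of 7.19 to oWAT and 7.48 to sWAT (4.93 and 4.99 with zeros at the floor). SLC27A5, which activates bile acids for conjugation, had 339 counts in liver, 0 in oWAT and 1 in sWAT (775, 0 and 2.60 CPM), and the bile salt export pump ABCB11 had 125 counts in liver, 0 in oWAT and 0 in sWAT (286, 0 and 0 CPM). AKR1D1, a reductase of bile acid synthesis, had 254 counts in liver, 0 in oWAT and 0 in sWAT (580.5, 0 and 0 CPM). The sterol exporter ABCG8 had 228 counts in liver, 0 in oWAT and 0 in sWAT (521, 0 and 0 CPM). Each of these was at 0 or 1 count in fat. The uptake transporter SLCO1B1 was present in fat at a low level, with 1251 counts in liver, 17 in oWAT and 5 in sWAT (2859, 42.8 and 13 CPM). CYP27A1, a sterol hydroxylase that many tissues express, had 123 counts in liver, 54 in oWAT and 43 in sWAT (281, 136 and 112 CPM) and was called with the other scalings alone.

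Uptake and binding of fatty acids had more calls on the fat side. LPL, lipoprotein lipase, had 20 counts in liver, 2841 in oWAT and 3529 in sWAT (45.7, 7159.8 and 9193 CPM), and was 157-fold (101 to 257) higher in oWAT and 201-fold (130 to 329.7) higher in sWAT. GPIHBP1, the protein that holds LPL on the capillary wall, had 0 counts in liver, 47 in oWAT and 55 in sWAT (0, 118 and 143 CPM). FABP4, the fatty acid carrier of adipocytes, had 1 count in liver, 292 in oWAT and 347 in sWAT (2.29, 736 and 904 CPM), and the transporter CD36 had 182 counts in liver, 1703 in oWAT and 1979 in sWAT (416, 4292 and 5155 CPM), or 10.3-fold (8.85 to 12.1) higher in oWAT and 12.4-fold (10.6 to 14.5) higher in sWAT. Both fat libraries thus lay far above liver for the lipase, its anchor, the carrier and the transporter. Caveolae, the membrane pits that cover the adipocyte surface, followed: CAV1 was 75.2-fold (42.8 to 146) higher in oWAT and 66.0-fold (37.6 to 128) higher in sWAT, CAVIN1 46.7-fold (29.4 to 79.3) higher in oWAT and 53.1-fold (33.4 to 90.1) higher in sWAT and CAV2 21.8-fold (12.2 to 42.8) higher in oWAT and 31.4-fold (17.8 to 61.5) higher in sWAT. On the liver side stood FABP1, the liver fatty acid carrier, with 26 counts in liver, 0 in oWAT and 0 in sWAT (59.4, 0 and 0 CPM). SLC27A2, which activates and imports long fatty acids, had 123 counts in liver, 1 in oWAT and 0 in sWAT (281, 2.52 and 0 CPM). LIPG, endothelial lipase, had 24 counts in liver, 1 in oWAT and 1 in sWAT (54.8, 2.52 and 2.60 CPM). Of 19 tested genes 8 were higher in fat and 3 in liver, and the same numbers were called with each scaling. The lipoprotein receptors SCARB1 (136, 145 and 221 counts in liver, oWAT and sWAT) and LRP1 (112, 172 and 234) were not called.

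Lipid droplet genes were divided by family member. PLIN1 and PLIN4, perilipins of the adipocyte droplet, had 0 counts in liver, 216 in oWAT and 165 in sWAT (0, 544 and 429.8 CPM) and 20 counts in liver, 629 in oWAT and 1159 in sWAT (45.7, 1585 and 3019 CPM). PLIN5, a perilipin of oxidizing tissues, had 45 counts in liver, 0 in oWAT and 1 in sWAT (103, 0 and 2.60 CPM). Among the CIDE proteins, which control droplet fusion, CIDEC had 0 counts in liver, 33 in oWAT and 38 in sWAT (0, 83.2 and 99 CPM) and CIDEA 0 counts in liver, 21 in oWAT and 16 in sWAT (0, 52.9 and 41.7 CPM). CIDEB had 16 counts in liver, 1 in oWAT and 3 in sWAT (36.6, 2.52 and 7.81 CPM) and was called for liver with the other scalings alone. The channels that carry glycerol divided likewise: AQP7, the adipocyte exit route, was 14.6-fold (5.93 to 46.3) higher in oWAT and 11.6-fold (4.67 to 37.3) higher in sWAT, and AQP9, the hepatocyte entry route, was 78.6-fold (26.6 to 384) over oWAT and 228-fold (40.6 to 9044) over sWAT. HSD17B13, a droplet protein of hepatocytes, had 371 counts in liver, 0 in oWAT and 0 in sWAT (848, 0 and 0 CPM). For lipolysis, LIPE, hormone-sensitive lipase, had 3 counts in liver, 1313 in oWAT and 783 in sWAT (6.86, 3309 and 2039.6 CPM), or 483-fold (165 to 2343) higher in oWAT and 298-fold (101 to 1446) higher in sWAT, and PNPLA2, which removes the first fatty acid from triglyceride, had 7 counts in liver, 97 in oWAT and 58 in sWAT (16.0, 244 and 151 CPM), or 15.3-fold (7.14 to 39.0) higher in oWAT and 9.44-fold (4.30 to 24.5) higher in sWAT. MGLL, which removes the last, had 35 counts in liver, 68 in oWAT and 75 in sWAT (80.0, 171 and 195 CPM) and was not called, nor was ABHD5, the activator of PNPLA2, with 12 counts in liver, 35 in oWAT and 22 in sWAT (27.4, 88.2 and 57.3 CPM). Of 18 tested genes 9 were higher in fat and 4 in liver, with a median log2 ratio of -2.43 to oWAT and -2.01 to sWAT; PLIN3 was the only one of the fat calls lost with the other scalings.

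**Figure D2:**
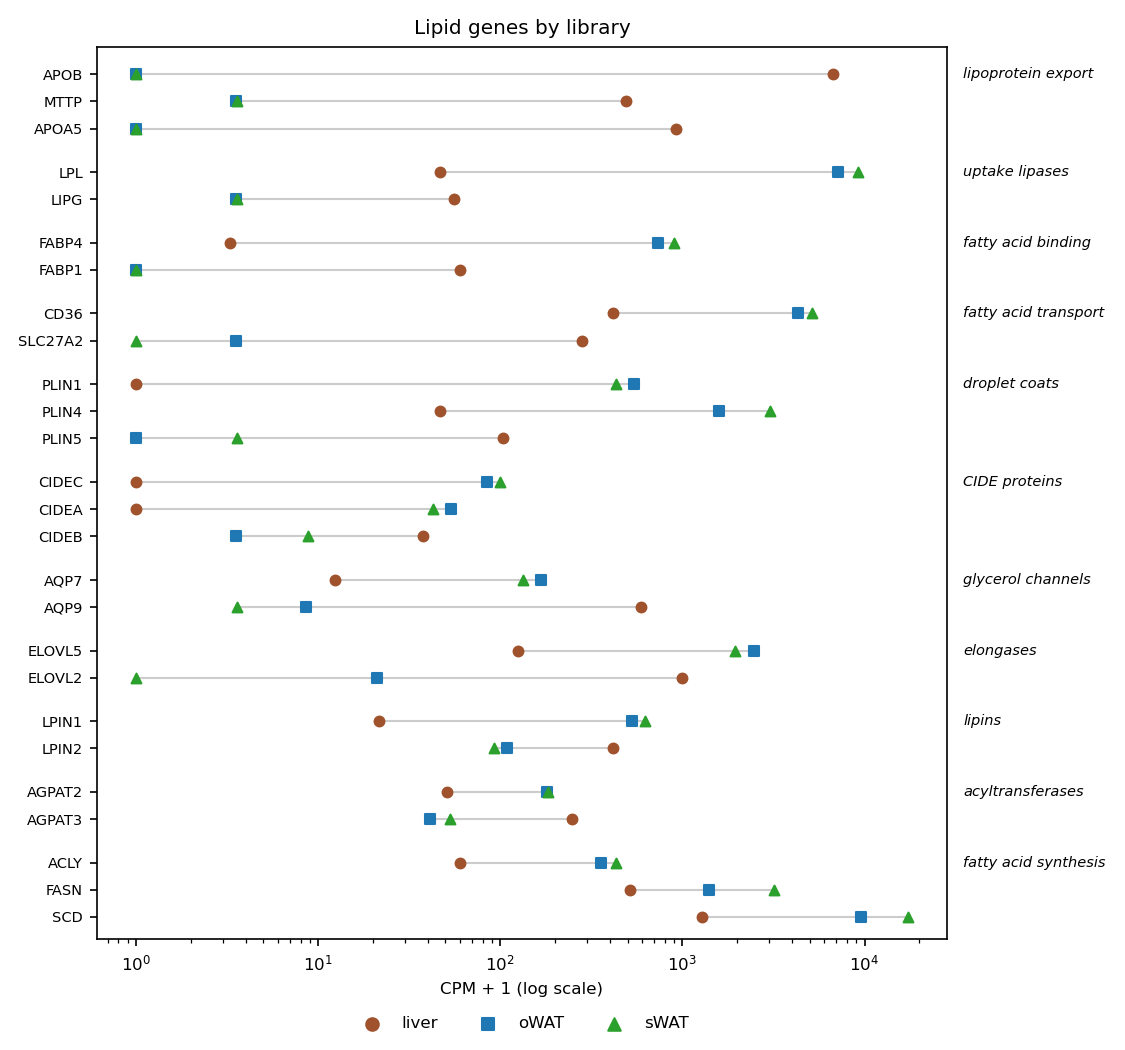
CPM + 1 (log axis) of lipid genes in liver (circles), oWAT (squares) and sWAT (triangles), 1 library each; a point at 1 means 0 counts. Within the lipases, carriers, droplet coats, glycerol channels, elongases and lipins, 1 member or more lay highest in liver and another highest in both fat libraries.

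Fatty acid and triglyceride synthesis had family members on each side. SCD, the desaturase that makes oleate, had 560 counts in liver, 3804 in oWAT and 6645 in sWAT (1279.8, 9587 and 17309 CPM), or 7.49-fold (6.85 to 8.20) higher in oWAT and 13.5-fold (12.4 to 14.8) higher in sWAT. ACLY, which supplies cytosolic acetyl-CoA, had 26 counts in liver, 142 in oWAT and 166 in sWAT (59.4, 358 and 432 CPM), or 6.02-fold (3.94 to 9.54) higher in oWAT and 7.28-fold (4.79 to 11.5) higher in sWAT. FASN, fatty acid synthase, was 2.72-fold (2.32 to 3.19) higher in oWAT and 6.20-fold (5.37 to 7.18) higher in sWAT, a call lost with the other scalings. Among elongases of polyunsaturated fatty acids, ELOVL5 had 54 counts in liver, 977 in oWAT and 748 in sWAT (123, 2462 and 1948 CPM) while ELOVL2 had 434 counts in liver, 8 in oWAT and 0 in sWAT (992, 20.2 and 0 CPM). Among lipins, the phosphatases that make diacylglycerol, LPIN1 had 9 counts in liver, 210 in oWAT and 239 in sWAT (20.6, 529 and 623 CPM) while LPIN2 had 182 counts in liver, 43 in oWAT and 35 in sWAT (416, 108 and 91.2 CPM). The same division held for the acyltransferases AGPAT2 and AGPAT3. AGPAT2 was 3.56-fold (2.18 to 6.03) higher in oWAT, a call lost with the other scalings, and AGPAT3 was 4.74-fold (2.92 to 8.06) over sWAT. ACSL1, which activates long-chain fatty acids, was present in all 3 libraries and higher in liver, with 2895 counts in liver, 637 in oWAT and 587 in sWAT (6616, 1605 and 1529 CPM). DGAT2, which makes triglyceride, had 300 counts in liver, 407 in oWAT and 416 in sWAT (686, 1026 and 1084 CPM). GPAM, which starts glycerolipid synthesis, had 287 counts in liver, 342 in oWAT and 567 in sWAT (656, 862 and 1477 CPM), and neither was called. ACACB, which makes malonyl-CoA, was nearly level when scaled to the library total, at 139 counts in liver, 135 in oWAT and 149 in sWAT (318, 340.2 and 388 CPM), as was the regulator SREBF1 at 67 counts in liver, 51 in oWAT and 60 in sWAT (153, 129 and 156 CPM). Of 27 tested genes 8 were higher in fat and 4 in liver; either other scaling called 4 for fat. The median log2 ratio of -0.39 to oWAT and -0.66 to sWAT turned to 0.50 and 0.060 with TMM.

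Cholesterol synthesis had calls on the liver side alone. TM7SF2 and MSMO1, which act on sterol intermediates, had 185 counts in liver, 15 in oWAT and 5 in sWAT (423, 37.8 and 13 CPM) and 240 counts in liver, 25 in oWAT and 18 in sWAT (548, 63.0 and 46.9 CPM). CYP51A1, lanosterol demethylase, was 4.02-fold (2.54 to 6.63) over oWAT. INSIG1, which restrains the sterol sensor, was 4.47-fold (3.47 to 5.83) over sWAT. HMGCS1, an early enzyme, had 101 counts in liver, 48 in oWAT and 47 in sWAT (231, 121 and 122 CPM) and was called for liver with the other scalings alone. Of 20 tested genes 6 were higher in liver and 0 in fat, and 11 were with TMM or DESeq2 scaling. The median log2 ratio was 0.91 to oWAT and 1.16 to sWAT.

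Of 27 tested membrane lipid genes 2 (7.41%) were higher in liver and 5 (18.5%) in fat, and 20 were called in neither direction. The liver share is near the 6.24% of all genes tested, and 12.6% of all genes were higher in fat. The 2 liver calls, PCYT2 and SELENOI, are not read as a result about a pathway. PISD, another list member, was not called at 15 counts in liver, 53 in oWAT and 41 in sWAT. PCYT2, which makes CDP-ethanolamine, had 149 counts in liver, 9 in oWAT and 7 in sWAT (341, 22.7 and 18.2 CPM), or 15.0-fold (7.70 to 33.5) over oWAT and 18.7-fold (8.84 to 47.3) over sWAT. SELENOI, which uses it to make the phospholipid, had 36 counts in liver, 3 in oWAT and 2 in sWAT (82.3, 7.56 and 5.21 CPM). For both genes the fat libraries lay within a few counts of each other, and their order is not read. The 5 fat calls were the acyltransferases MBOAT1 (33.1-fold (5.48 to 1350.1) higher in sWAT) and LPCAT1 (12.1-fold (2.98 to 106) higher in oWAT) and the sphingolipid genes SPTLC2 (6.62-fold (2.54 to 21.8) higher in oWAT), DEGS1 (3.42-fold (2.06 to 5.90) higher in sWAT) and ASAH1 (4.22-fold (2.87 to 6.37) higher in sWAT). Of these MBOAT1 alone was called with the other scalings. The median log2 ratio of -0.83 to oWAT and -0.71 to sWAT became 0.069 and 0.0061 with TMM.

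Secretory genes had calls on both sides. Over 7 lists with 232 members, 176 were tested, of which 74 (42.0%) were higher in liver and 25 (14.2%) higher in both fat libraries, beside 6.24% and 12.6% of all genes tested. The fat share is near that of all genes, and TMM and DESeq2 scaling each called 15 for fat. All 26 tested plasma carrier and acute phase genes were higher in liver, with a median log2 ratio of 7.96 to oWAT and 7.91 to sWAT (6.29 and 6.18 with zeros at the floor). Not all of them were absent from fat. TF, transferrin, had 10586 counts in liver, 151 in oWAT and 308 in sWAT (24192, 381 and 802 CPM), and was 63.6-fold (54.1 to 75.2) over oWAT and 30.2-fold (26.9 to 33.9) over sWAT. RBP4, the retinol carrier that adipocytes also secrete, had 1063 counts in liver, 35 in oWAT and 72 in sWAT (2429, 88.2 and 188 CPM), or 27.5-fold (19.7 to 39.8) over oWAT and 13-fold (10.2 to 16.7) over sWAT. ITIH3, a hyaluronan-binding chain, was 45.4-fold (24.5 to 95.3) over oWAT and 48.8-fold (25.5 to 107) over sWAT, and CP, the copper oxidase ceruloplasmin, 103-fold (49.8 to 257) over oWAT and 232-fold (79.3 to 1129.7) over sWAT. AMBP, the precursor of bikunin, had 1188 counts in liver, 0 in oWAT and 0 in sWAT (2715, 0 and 0 CPM). TTR, the thyroid hormone carrier, had 87 counts in liver, 0 in oWAT and 0 in sWAT (199, 0 and 0 CPM). Neither of these had counts in fat.

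Clotting genes were mostly on the liver side. Of 28 tested genes 21 (75%) were higher in liver and 4 (14.3%) in fat, the latter near the 12.6% of all genes, with a median log2 ratio of 8.17 to oWAT and 7.99 to sWAT (5.58 and 5.53 with zeros at the floor). F2, prothrombin, had 1355 counts in liver, 0 in oWAT and 0 in sWAT (3097, 0 and 0 CPM). KNG1, kininogen, had 902 counts in liver, 0 in oWAT and 0 in sWAT (2061, 0 and 0 CPM). F10, factor X, was present in fat, with 321 counts in liver, 27 in oWAT and 39 in sWAT (734, 68.0 and 102 CPM), or 10.8-fold (7.27 to 16.6) over oWAT and 7.22-fold (5.17 to 10.3) over sWAT. PROS1, protein S, which many cells make, had 481 counts in liver, 129 in oWAT and 188 in sWAT (1099, 325 and 489.7 CPM) and was called with the other scalings alone. The inhibitor genes SERPINC1, of antithrombin, and SERPIND1, of heparin cofactor, were on the liver side, with 895 counts in liver, 0 in oWAT and 0 in sWAT (2045, 0 and 0 CPM) and 705 counts in liver, 0 in oWAT and 0 in sWAT (1611, 0 and 0 CPM). The 4 fat calls follow. F13A1, the subunit that cross-links fibrin, had 0 counts in liver, 48 in oWAT and 103 in sWAT (0, 121 and 268 CPM). PLAT, tissue plasminogen activator, had 0 counts in liver, 109 in oWAT and 31 in sWAT (0, 275 and 80.8 CPM). SERPINE2, a protease inhibitor, had 2 counts in liver, 80 in oWAT and 32 in sWAT (4.57, 202 and 83.4 CPM). PLAU, urokinase, had 1 count in liver, 13 in oWAT and 27 in sWAT (2.29, 32.8 and 70.3 CPM). PLAU was not called with the other scalings. F8, factor VIII, had 36 counts in liver, 43 in oWAT and 40 in sWAT (82.3, 108 and 104 CPM) and was not called.

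Complement had 13 of 22 tested genes (59.1%) higher in liver and 3 (13.6%) in fat, beside 6.24% and 12.6% of all genes tested. The fat share is near that of all genes, and either other scaling called 1 for fat. The membrane attack genes C9, C8A and C8B had 0 counts in both fat libraries, with 1398, 389 and 704 in liver. C6 had 610 counts in liver, 1 in oWAT and 2 in sWAT (1394, 2.52 and 5.21 CPM). C7, of the same complex, went the other way at 169 counts in liver, 1000 in oWAT and 320 in sWAT (386, 2520.2 and 834 CPM), being 6.53-fold (5.54 to 7.73) higher in oWAT and 2.16-fold (1.79 to 2.62) higher in sWAT; it was not called since the sWAT interval reached below 2. C3, the central component, had 4997 counts in liver, 1050 in oWAT and 32 in sWAT (11419, 2646 and 83.4 CPM), with the fat depots far apart. SERPING1, the C1 inhibitor, had 573 counts in liver, 436 in oWAT and 179 in sWAT (1309, 1099 and 466 CPM) and was called for liver with DESeq2 scaling alone. CFD, the protease also known as adipsin, had 0 counts in liver, 23 in oWAT and 53 in sWAT (0, 58.0 and 138 CPM), and the cell-surface regulators CD55 and CD59 were 3.70-fold (2.08 to 6.95) higher in sWAT and 4.08-fold (2.12 to 8.51) higher in sWAT, calls that were lost with the other scalings. The oWAT library held the mesothelial markers given above, and their part in the C3, C7 and SERPING1 values was not tested. C1QA, C1QB and C1QC, made by macrophages, were not called. C1QC had 16 counts in liver, 39 in oWAT and 29 in sWAT (36.6, 98.3 and 75.5 CPM).

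**Figure D3:**
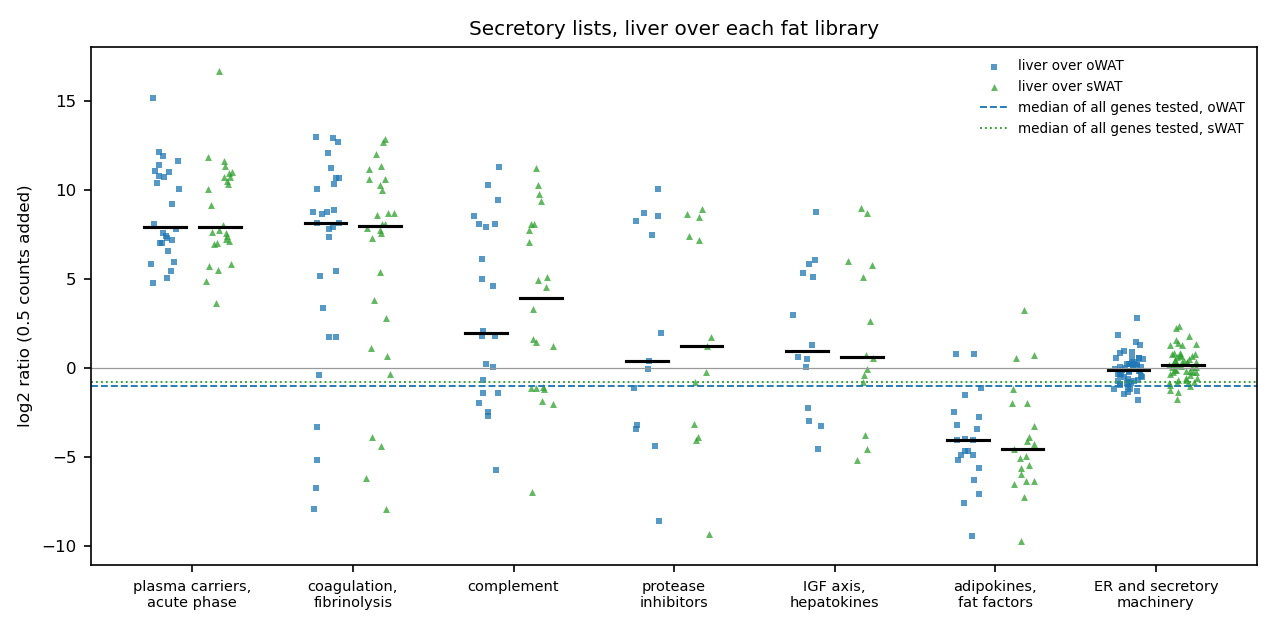
Log2 ratio of liver to oWAT (squares) and to sWAT (triangles) for each tested member of 7 secretory lists, with 0.5 counts added; black bars are list medians and the dashed and dotted lines the medians of all genes tested, -0.99 and -0.77. Plasma and clotting genes reach far above 0, adipokines lie mostly below, and the genes of the secretory machinery stay between -1.81 and 2.80.

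The machinery that folds and carries secreted proteins had few calls with the library total and more with the other scalings. Of 52 tested genes of the endoplasmic reticulum (ER) and of vesicle transport, 2 (3.85%) were higher in liver and 0 in fat. Of all genes tested 6.24% were higher in liver and 12.6% in fat, so both shares of the list are below these. The median log2 ratio was -0.11 to oWAT and 0.17 to sWAT, against -0.99 and -0.77 for all genes. With TMM it was 0.79 and 0.89, against -0.092 and -0.047. The chaperone HSPA5 (BiP) had 595 counts in liver, 748 in oWAT and 392 in sWAT (1359.7, 1885 and 1021 CPM). CANX, calnexin, had 451 counts in liver, 669 in oWAT and 582 in sWAT (1031, 1686 and 1516 CPM). Neither was called with any scaling. The 2 liver calls were SAR1B and MIA2. SAR1B, a GTPase required for the export of large lipoproteins, had 67 counts in liver, 16 in oWAT and 12 in sWAT (153, 40.3 and 31.3 CPM). It was 3.80-fold (2.18 to 7.02) over oWAT and 4.90-fold (2.63 to 9.95) over sWAT. MIA2, a receptor for bulky cargo, had 126 counts in liver, 16 in oWAT and 21 in sWAT (288, 40.3 and 54.7 CPM). It was 7.14-fold (4.23 to 12.9) over oWAT and 5.26-fold (3.30 to 8.80) over sWAT. SAR1A, the paralog of SAR1B, had 81 counts in liver, 202 in oWAT and 168 in sWAT (185, 509 and 438 CPM), lowest in liver, and was not called. P4HB, a disulfide isomerase that is also a subunit of collagen prolyl hydroxylase, had 695 counts in liver, 342 in oWAT and 248 in sWAT (1588, 862 and 646 CPM). PDIA4, of the same family, had 437 counts in liver, 202 in oWAT and 107 in sWAT (999, 509 and 279 CPM). With TMM or DESeq2 scaling 7 of 52 genes were higher in liver, beside 8.98% and 9.08% of all genes. The genes added were P4HB, PDIA4, SEC24A, LMAN1 and MCFD2. LMAN1 and MCFD2 form the receptor that exports clotting factors V and VIII, and had 92 counts in liver, 30 in oWAT and 30 in sWAT (210.2, 75.6 and 78.1 CPM) and 167 counts in liver, 100 in oWAT and 84 in sWAT (382, 252 and 219 CPM).

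Protease inhibitors and the insulin-like growth factor (IGF) system had more calls for liver than for fat. SERPINA1, alpha-1 antitrypsin, had 835 counts in liver, 2 in oWAT and 1 in sWAT (1908, 5.04 and 2.60 CPM). PZP, pregnancy zone protein, had 622 counts in liver, 1 in oWAT and 1 in sWAT (1421, 2.52 and 2.60 CPM). Its relative A2M, alpha-2-macroglobulin, was level when scaled to the library total, at 1661 counts in liver, 1562 in oWAT and 1681 in sWAT (3796, 3937 and 4379 CPM). PI16, a marker of adventitial fibroblasts, had 0 counts in liver, 170 in oWAT and 278 in sWAT (0, 428 and 724 CPM). SERPINF1, an inhibitor of vessel growth, was 3.42-fold (2.48 to 4.80) over sWAT. Of 13 tested inhibitors 6 (46.2%) were higher in liver and 2 (15.4%) in fat, PI16 and RECK (10.3-fold (3.18 to 52.9) higher in oWAT). RECK was not called with the other scalings. In the IGF list 6 of 14 tested genes (42.9%) were higher in liver and 2 (14.3%) in fat. Of all genes tested 6.24% were higher in liver and 12.6% in fat, so both fat shares are near that of all genes. IGFALS, which stabilizes circulating IGF, had 238 counts in liver, 0 in oWAT and 0 in sWAT (544, 0 and 0 CPM). GHR, the growth hormone receptor, was 6.43-fold (4.06 to 10.7) over sWAT. IGF1 itself had 22 counts in liver, 14 in oWAT and 13 in sWAT (50.3, 35.3 and 33.9 CPM) and was not called. Of the binding proteins IGFBP4 was level on the same scale at 504 counts in liver, 435 in oWAT and 449 in sWAT (1152, 1096 and 1169.6 CPM), and IGFBP3 had 373 counts in liver, 220 in oWAT and 419 in sWAT (852, 554 and 1091 CPM). IGFBP5, found in matrix, had 8 counts in liver, 175 in oWAT and 262 in sWAT (18.3, 441 and 682 CPM), or 24.1-fold (12 to 56.8) higher in oWAT and 37.3-fold (18.7 to 87.4) higher in sWAT. IGFBP7 was 10.7-fold (3.30 to 54.7) higher in oWAT, a call lost with the other scalings.

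Secreted factors of fat were on the fat side in 14 of 21 tested genes and on the liver side in 0, with a median log2 ratio of -4.05 to oWAT and -4.53 to sWAT (-3.20 and -3.73 with zeros at the floor); either other scaling called 9. ADIPOQ, adiponectin, had 1 count in liver, 915 in oWAT and 1117 in sWAT (2.29, 2306 and 2909.6 CPM). LEP, leptin, had 0 counts in liver, 11 in oWAT and 21 in sWAT (0, 27.7 and 54.7 CPM), and was not called with the other scalings. The Wnt modulators SFRP4 and SFRP2 had 1 count in liver, 66 in oWAT and 200 in sWAT (2.29, 166 and 521 CPM) and 0 counts in liver, 59 in oWAT and 40 in sWAT (0, 149 and 104 CPM). SLIT3, a guidance factor, was 95.4-fold (26.0 to 794) higher in oWAT and 76.9-fold (20.9 to 642) higher in sWAT, ANGPTL2, an angiopoietin-like protein, 37.9-fold (17.1 to 104) higher in oWAT and 36.3-fold (16.4 to 100.1) higher in sWAT, and LGALS3, galectin-3, 36.4-fold (6.09 to 1480.4) higher in oWAT and 63.8-fold (11 to 2566) higher in sWAT. The chemokine CXCL12 had 252 counts in liver, 498 in oWAT and 498 in sWAT (576, 1255 and 1297 CPM) and was not called, and NAMPT, an enzyme that is also secreted, had 43 counts in liver, 22 in oWAT and 25 in sWAT (98.3, 55.4 and 65.1 CPM). ITLN1, omentin, had 5 counts in liver, 964 in oWAT and 0 in sWAT (11.4, 2429 and 0 CPM) and was not called because sWAT had none; it is itself one of the mesothelial markers.

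Stromal calls were nearly all on the fat side. Over 7 lists with 153 members, 128 were tested, of which 86 (67.2%) were higher in both fat libraries and 2 (1.56%) higher in liver, beside 12.6% and 6.24% of all genes tested. The summed level of the lists was 14203 CPM in liver, 86546 in oWAT and 162708 in sWAT. With TMM and with DESeq2 scaling 70 were higher in fat and 5 in liver. The median log2 ratio was -4.10 to oWAT and -4.57 to sWAT (-3.59 and -4.03 with zeros at the floor), against -0.99 and -0.77 for all genes.

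Fibrillar collagens, the rope-like collagens of connective tissue, were far lower in liver. COL1A1 had 12 counts in liver, 3004 in oWAT and 12053 in sWAT (27.4, 7571 and 31396 CPM), or 276-fold (158 to 535) higher in oWAT and 1145-fold (655 to 2216) higher in sWAT. COL1A2, the partner chain, had 34 counts in liver, 2035 in oWAT and 6765 in sWAT (77.7, 5129 and 17622 CPM), or 66.0-fold (47.1 to 95.6) higher in oWAT and 227-fold (162 to 328) higher in sWAT. COL3A1, of loose connective tissue, had 86 counts in liver, 3051 in oWAT and 11288 in sWAT (197, 7689 and 29404 CPM), or 39.1-fold (31.6 to 49.1) higher in oWAT and 149.6-fold (121 to 187) higher in sWAT. For each of these 3 chains liver was lowest and sWAT highest. COL5A1 and COL5A3, which start fibrils, had 1 count each in liver. COL5A1 was 126-fold (22.1 to 5009) higher in oWAT and COL5A3 77.2-fold (13.4 to 3092) higher in oWAT. In the list 9 of 11 tested genes (8 with either other scaling) were higher in fat and 1 in liver. The exception was COL27A1, a fibrillar collagen of cartilage, with 21 counts in liver, 0 in oWAT and 2 in sWAT (48.0, 0 and 5.21 CPM), which was higher in liver; COL21A1 was not called at 4 counts in liver, 3 in oWAT and 13 in sWAT (9.14, 7.56 and 33.9 CPM).

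Basement membrane and network genes followed, with 13 of 19 tested genes (11 with either other scaling) higher in fat and 1 in liver. The collagen IV chains COL4A1 and COL4A2 were 25.7-fold (8.45 to 128) higher in oWAT and 21.0-fold (12.5 to 37.9) higher in oWAT. Collagen VI, which links cells to the matrix, was represented by COL6A1 with 49 counts in liver, 1215 in oWAT and 1413 in sWAT (112, 3062 and 3681 CPM) and COL6A3 with 3 counts in liver, 205 in oWAT and 467 in sWAT (6.86, 517 and 1216 CPM). LAMA4, the laminin chain around adipocytes and vessels, had 4 counts in liver, 578 in oWAT and 530 in sWAT (9.14, 1457 and 1381 CPM), or 159-fold (61.9 to 587) higher in oWAT and 151-fold (58.6 to 556) higher in sWAT. NID2 was 25.1-fold (10.5 to 78.9) higher in oWAT, and its paralog NID1 had 57 counts in liver, 116 in oWAT and 328 in sWAT (130.3, 292 and 854 CPM) and was not called. LAMA2, a laminin chain of muscle and nerve, had 3 counts in liver, 18 in oWAT and 99 in sWAT (6.86, 45.4 and 258 CPM) and was not called. COL18A1, the precursor of endostatin, stood apart: it had 667 counts in liver, 73 in oWAT and 72 in sWAT (1524, 184 and 188 CPM) and was 8.29-fold (6.5 to 10.7) over oWAT and 8.13-fold (6.37 to 10.5) over sWAT.

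Elastic fibre and matricellular genes had 25 of 32 tested members higher in fat and 0 in liver. Either other scaling called 21 for fat and 2 for liver. FBN1, fibrillin-1, had 0 counts in liver, 237 in oWAT and 524 in sWAT (0, 597 and 1365 CPM). FBLN2 and FBLN1, fibulins of microfibrils, had 7 counts in liver, 1016 in oWAT and 1978 in sWAT (16.0, 2560.5 and 5152 CPM) and 2 counts in liver, 533 in oWAT and 167 in sWAT (4.57, 1343 and 435 CPM), highest in sWAT for the first and in oWAT for the second. SPARC, a collagen-binding protein, had 71 counts in liver, 2135 in oWAT and 3258 in sWAT (162, 5381 and 8487 CPM), or 33.2-fold (26.2 to 42.6) higher in oWAT and 52.3-fold (41.3 to 67.1) higher in sWAT, and POSTN, periostin, had 0 counts in liver, 180 in oWAT and 159 in sWAT (0, 454 and 414 CPM). FN1, fibronectin, whose soluble form hepatocytes secrete into plasma, had 3594 counts in liver, 1238 in oWAT and 2224 in sWAT (8213, 3120 and 5793 CPM). TGFBI, a matrix adaptor protein, had 308 counts in liver, 74 in oWAT and 113 in sWAT (704, 186 and 294 CPM). Both were highest in liver but were called only with TMM and DESeq2 scaling.

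Small leucine-rich proteoglycans, which space collagen fibrils, had 8 of 10 tested genes higher in fat (7 with either other scaling). DCN, decorin, had 25 counts in liver, 927 in oWAT and 841 in sWAT (57.1, 2336 and 2191 CPM). LUM, lumican, had 9 counts in liver, 506 in oWAT and 544 in sWAT (20.6, 1275 and 1417 CPM). PODN, podocan, had 3 counts in liver, 445 in oWAT and 422 in sWAT (6.86, 1121 and 1099 CPM). OGN and PRELP had 1 count each in liver and were 94.8-fold (16.6 to 3789) higher in oWAT and 100.3-fold (17.5 to 4006) higher in sWAT. BGN, biglycan, went the other way at 43 counts in liver, 17 in oWAT and 22 in sWAT (98.3, 42.8 and 57.3 CPM) and was not called.

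Enzymes that build and cut collagen were lower in liver in part. SERPINH1, the collagen chaperone of the ER, had 14 counts in liver, 585 in oWAT and 444 in sWAT (32.0, 1474 and 1157 CPM), or 46.1-fold (27.2 to 84.8) higher in oWAT and 36.1-fold (21.3 to 66.7) higher in sWAT. LOX, which cross-links collagen and elastin, had 0 counts in liver, 66 in oWAT and 183 in sWAT (0, 166 and 477 CPM). ADAMTS2, which trims procollagen, had 3 counts in liver, 98 in oWAT and 222 in sWAT (6.86, 247 and 578 CPM). PLOD1, a lysyl hydroxylase, had 59 counts in liver, 82 in oWAT and 79 in sWAT (135, 207 and 206 CPM). BMP1, which removes the other procollagen end, had 32 counts in liver, 74 in oWAT and 71 in sWAT (73.1, 186 and 185 CPM), and neither was called. Of 21 tested genes of collagen folding and cross-linking 9 were higher in fat and 0 in liver, and 6 were with either other scaling. TGM2, a transglutaminase, had 130 counts in liver, 172 in oWAT and 15 in sWAT (297, 433 and 39.1 CPM), with liver and oWAT both above sWAT. Among metalloproteinases and their inhibitors 10 of 15 were higher in fat (7 with either other scaling) and 0 in liver. MMP2, a gelatinase of fibroblasts, had 2 counts in liver, 732 in oWAT and 1283 in sWAT (4.57, 1845 and 3342 CPM), or 404-fold (111 to 3339) higher in oWAT and 731-fold (202 to 6044) higher in sWAT, MMP19 had 0 counts in liver, 146 in oWAT and 99 in sWAT (0, 368 and 258 CPM), TIMP3, an inhibitor bound to matrix, was 17.5-fold (11.7 to 27.3) higher in oWAT and 40.3-fold (27.1 to 62.6) higher in sWAT, and TIMP4 had 0 counts in liver, 64 in oWAT and 133 in sWAT (0, 161 and 346 CPM).

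Fibroblast and preadipocyte genes had 12 of 20 tested members higher in fat and 0 in liver. Either other scaling called 10 for fat and 1 for liver. GSN, gelsolin, which severs actin filaments, had 15 counts in liver, 4800 in oWAT and 4701 in sWAT (34.3, 12097 and 12246 CPM), or 353-fold (214 to 631) higher in oWAT and 357-fold (216 to 639) higher in sWAT. CCDC80, a secreted matrix protein, had 6 counts in liver, 1493 in oWAT and 1301 in sWAT (13.7, 3763 and 3389 CPM). SCARA5, a ferritin receptor of fibroblasts, had 1 count in liver, 533 in oWAT and 1086 in sWAT (2.29, 1343 and 2829 CPM). CD34 and THY1, surface markers of stromal cells, were 60.4-fold (27.5 to 166) higher in sWAT and 30.9-fold (10.2 to 153) higher in oWAT, and VIM, vimentin, 33.7-fold (19.5 to 63.8) higher in oWAT. DPP4, a marker of fibroblast progenitors that hepatocytes also carry, had 98 counts in liver, 58 in oWAT and 95 in sWAT (224, 146 and 247 CPM) and was not called. ABCA6, a lipid transporter, had 103 counts in liver, 28 in oWAT and 34 in sWAT (235, 70.6 and 88.6 CPM) and was called for liver with TMM and DESeq2 scaling alone.

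**Figure D4:**
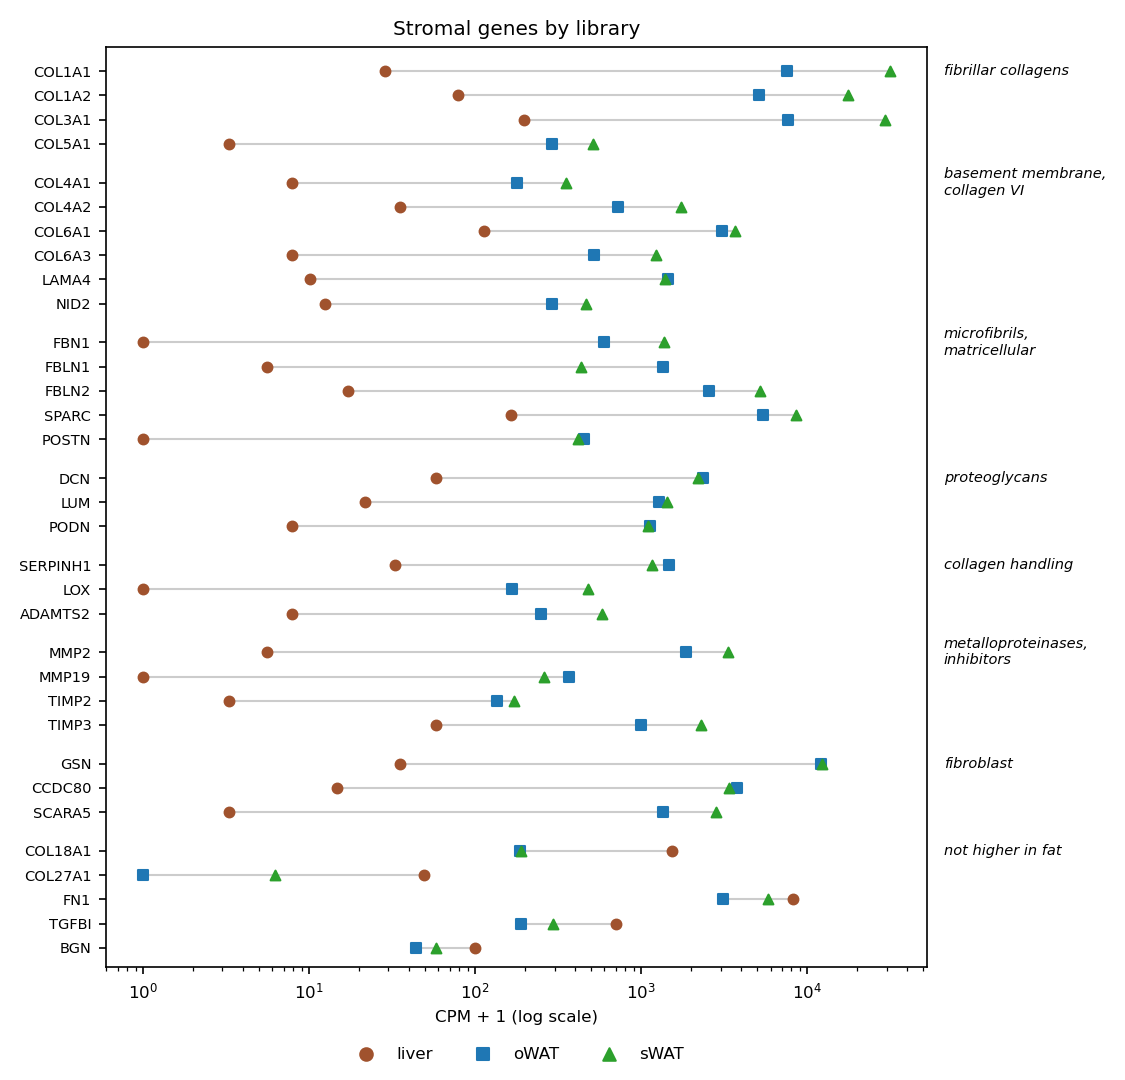
CPM + 1 (log axis) of stromal genes in liver (circles), oWAT (squares) and sWAT (triangles), 1 library each; a point at 1 means 0 counts. Liver lies lowest for every gene of the first 7 groups and highest for the 5 genes of the last group, of which COL18A1 and COL27A1 were called.

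Markers of vessels, of smooth muscle and of lipid-associated macrophages were mostly called for fat, as the stromal lists were, and their part in those values was not tested. The 14 endothelial markers summed to 473 CPM in liver, 3833 in oWAT and 6273 in sWAT. Of 13 tested, 10 (76.9%) were higher in fat and 0 in liver, and 5 were higher in fat with TMM and with DESeq2 scaling. Of all genes tested, 12.6% were higher in fat with the library total, 5.74% with TMM and 5.70% with DESeq2 scaling. VWF, von Willebrand factor, had 12 counts in liver, 250 in oWAT and 591 in sWAT (27.4, 630 and 1539 CPM), and PECAM1 44 counts in liver, 352 in oWAT and 535 in sWAT (101, 887 and 1394 CPM). KDR, the receptor of vascular endothelial growth factor, had 17 counts in liver, 23 in oWAT and 29 in sWAT (38.8, 58.0 and 75.5 CPM) and was not called. Markers of liver sinusoids were mixed and summed to 265 CPM in liver, 257 in oWAT and 445 in sWAT. Of 5 tested, 2 (40%) were higher in liver and 1 (20%) in fat, beside 6.24% and 12.6% of all genes tested. STAB2, a scavenger receptor, had 54 counts in liver, 4 in oWAT and 0 in sWAT (123, 10.1 and 0 CPM). OIT3 had 24 counts in liver, 0 in oWAT and 0 in sWAT (54.8, 0 and 0 CPM), and both were higher in liver. LYVE1, shared with lymphatic vessels, had 6 counts in liver, 42 in oWAT and 80 in sWAT (13.7, 106 and 208 CPM). It was higher in fat with the library total alone. STAB1 (28, 49 and 80 counts in liver, oWAT and sWAT) and CLEC4G (3, 1 and 7) were not called. Smooth muscle and pericyte markers summed to 482 CPM in liver, 1522 in oWAT and 1859.9 in sWAT. Of 10 tested, 6 (60%) were higher in fat, also 6 with TMM and 5 with DESeq2 scaling, beside the same shares of all genes. Among them were ACTA2 (18.2-fold (6.78 to 68.8) higher in oWAT) and MCAM (at least 36.4-fold higher in oWAT). The pericyte channel genes were not called: ABCC9 had 42 counts in liver, 5 in oWAT and 18 in sWAT (96.0, 12.6 and 46.9 CPM). KCNJ8 had 21 counts in liver, 6 in oWAT and 4 in sWAT (48.0, 15.1 and 10.4 CPM) and was called for liver with TMM and DESeq2 scaling. MYLK, myosin light chain kinase, had 115 counts in liver, 104 in oWAT and 145 in sWAT (263, 262 and 378 CPM) and was not called.

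Markers of hepatic stellate cells, the vitamin A storing cells of liver, were low in all 3 libraries. The 8 markers summed to 258 CPM in liver, 58.0 in oWAT and 31.3 in sWAT. Of 4 tested, 2 (50%) were higher in liver and 0 in fat, beside 6.24% and 12.6% of all genes tested. The 2 were HHIP, with 35 counts in liver, 5 in oWAT and 1 in sWAT (80.0, 12.6 and 2.60 CPM), and COLEC10, with 28 counts in liver, 1 in oWAT and 0 in sWAT (64.0, 2.52 and 0 CPM). COLEC11 (21, 6 and 8 counts in liver, oWAT and sWAT) was not called. RELN (23, 7 and 2) was called for liver with the other scalings alone. LRAT, PTH1R, BAMBI and HAND2 were not tested because the counts of each summed to under 10. Bile duct markers summed to 311 CPM in liver, 970.3 in oWAT and 369.9 in sWAT. Of 4 tested, CDH1 was higher in liver and SPP1 in fat, and KRT19 and ANXA4 were not called. SPP1 is also on the list of lipid-associated macrophages and KRT19 on that of mesothelium. KRT7, SOX9, EPCAM, CFTR and TFF3 were not tested.

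Macrophage markers differed by list. Those of lipid-associated macrophages were mostly called for fat, and most of the others were not called. Of 8 tested general markers 2 (25%) were higher in fat, beside 12.6% of all genes tested, and 6 were called in neither direction. The 2 were CD68 (10.3-fold (5.33 to 22.1) higher in sWAT) and MSR1 (14.1-fold (4.45 to 71.3) higher in sWAT). MRC1, the mannose receptor, had 68 counts in liver, 99 in oWAT and 100 in sWAT (155, 249 and 260.5 CPM) and was not called. CD14 was highest in liver at 69 counts, with 54 in oWAT and 29 in sWAT, and was not called. Of 8 tested markers of lipid-associated macrophages 5 (62.5%) were higher in fat, beside 12.6% of all genes tested. The list summed to 114 CPM in liver, 5335 in oWAT and 3616 in sWAT. CHIT1, a chitinase, had 3 counts in liver, 743 in oWAT and 484 in sWAT (6.86, 1872 and 1261 CPM). GPNMB, a lysosomal membrane protein, had 29 counts in liver, 807 in oWAT and 617 in sWAT (66.3, 2034 and 1607 CPM). ITGAX, the integrin CD11c, had 4 counts in liver, 171 in oWAT and 132 in sWAT (9.14, 431 and 344 CPM). TREM2, a receptor of these cells, had 3 counts in liver, 6 in oWAT and 6 in sWAT (6.86, 15.1 and 15.6 CPM) and was not called. Of 6 tested markers of Kupffer cells, the resident macrophages of liver, 1 (16.7%) was higher in liver and 0 in fat. Of all genes tested 6.24% were higher in liver and 12.6% in fat. The gene called was CD5L, with 40 counts in liver, 6 in oWAT and 2 in sWAT (91.4, 15.1 and 5.21 CPM). MARCO had 19 counts in liver, 12 in oWAT and 1 in sWAT (43.4, 30.2 and 2.60 CPM). VSIG4 had 22 counts in liver, 60 in oWAT and 17 in sWAT (50.3, 151 and 44.3 CPM), and neither was called.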

How the data were processed

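Full-length libraries of liver, oWAT and sWAT were compared, 1 per tissue, each from RNA of 5 monkeys combined before library preparation, per the labels' protocols. Reads were aligned with minimap2 2.24, per the submitters' processing notes; the sources used here do not give the read counter, strand use, genome build or annotation. The deposited counts are whole numbers per gene whose totals differ between libraries, and were read as not normalized; a gene not listed was taken as 0. An entry naming no gene (19.2% of the liver file, 19.5% of oWAT and 16.6% of sWAT) was left out. Tissue names follow the labels, from which the names of the fat files differ. Of the genes tested, 8502 had a symbol in the RefSeq table of T2T-MFA8v1.1. No coordinates or sequences are given because the build is not known and no sequences were at hand. Some genes are not reported here.

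Folds and exact Clopper-Pearson intervals were computed with Python 3.11.15 and SciPy 1.17.1, and list medians with 0.5 counts added. edgeR 4.0.16 and DESeq2 1.42.0 gave scaling factors alone (TMM 0.688, 1.28 and 1.13; DESeq2 0.739, 1.28 and 1.09). The floor of 3 counts equals 6.86 CPM in liver, 7.56 in oWAT and 7.81 in sWAT. No molecular identifiers are described, so counts from copies of 1 molecule could not be told apart. Intervals and floors take each count as independent and cover counting error only on that footing. CPM is not corrected for length, so levels are compared within a gene. The calling code was tested on simulated counts.

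The comparison, the 39 gene lists and the rules were chosen with earlier results of these data known. Named were the 12 called genes with the largest interval bound per direction, the 10 highest in liver and in fat, up to 6 called members per list and direction, up to 4 uncalled ones with the highest CPM, and the cell type markers. Named outside the rule, after their values were seen, are AGPAT2, CIDEB, CP, F10, ITIH3, LMAN1, MCFD2, PDIA4, PLIN3, PNPLA2, RBP4, SAR1A, SEC24A, SERPINC1, SERPIND1 and SREBF1, and in the additional observations ANXA1, AOC1, AOC3, CHRDL1, CILP, CYP4A11, FHL1, ITIH5 and TFR2.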

Additional observations from a re-analysis of the deposited data

How the results depend on the processing

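No p-values were possible with 1 library per tissue, and no replicate could be left out. No paired analysis was possible because each tissue has 1 library and the groups share fewer than 2 replicate numbers. The result of genes higher in each fat library than in liver, and that of genes higher in liver than in each fat library, moved as follows. With TMM scaling 537 genes were higher in fat, 15 of them secretory, and 5 stromal genes were higher in liver. With DESeq2 scaling the same counts were 533, 15 and 5. With a bound of 1 in place of 2-fold, 915 genes were higher in liver and 2902 in fat, with 48 lipid and 44 secretory genes higher in fat and 7 stromal genes higher in liver. With a bound of 4 these were 380, 470, 20, 13 and 1, and 35 lipid genes were higher in liver. Stromal genes higher in liver numbered 4 with totals that left out the 10 most abundant genes, 1 with a minimum of 50 counts, 1 with 99% intervals, 5 against oWAT alone and 4 against the summed fat libraries. In 90 other cases a count over all genes or a theme stayed within 1.5 times the main count. No called gene named by the rule changed direction under any alternative run. List medians changed sign in 7 lists, all with medians that carry no test. With TMM and with DESeq2 scaling these were fatty acid and triglyceride synthesis, phospholipid and sphingolipid synthesis, the secretory machinery against oWAT (0.17 also without the 10 most abundant genes) and Kupffer cell markers against sWAT (0.29 and 0.32). With another minimum count they were sinusoidal endothelium against oWAT (-0.94) and the insulin-like growth factor list against sWAT (-0.19), and with 1 count added cholangiocyte markers against sWAT (-0.036). Depth limits the genes with few counts: a gene at 0 could hold up to 3 counts, or 6.86 to 7.81 CPM.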

Other observations

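Genes outside the lists were also called: 400 with a symbol were higher in liver and 949 higher in both fat libraries. Most of those named here were chosen after their values were seen, for the width of their gaps. MAT1A, which makes S-adenosylmethionine, had 3431 counts in liver, 0 in oWAT and 0 in sWAT (7841, 0 and 0 CPM). CYP4A11, a fatty acid hydroxylase, had 1041 counts in liver, 0 in oWAT and 0 in sWAT (2379, 0 and 0 CPM). TFR2, the transferrin receptor of hepatocytes, had 838 counts in liver, 1 in oWAT and 0 in sWAT (1915, 2.52 and 0 CPM). On the fat side EHD2, a protein of caveolae, had 4 counts in liver, 916 in oWAT and 751 in sWAT (9.14, 2308 and 1956 CPM), or 253-fold (98.3 to 929) higher in oWAT and 214-fold (83.2 to 787) higher in sWAT, beside the caveolins and cavins of the uptake list. SEMA3C, a secreted guidance factor, had 0 counts in liver, 244 in oWAT and 360 in sWAT (0, 615 and 938 CPM). CHRDL1, a secreted inhibitor of bone morphogenetic proteins, had 0 counts in liver, 160 in oWAT and 175 in sWAT (0, 403 and 456 CPM). CILP, a matrix protein, had 0 counts in liver, 155 in oWAT and 333 in sWAT (0, 391 and 867 CPM). ANXA1, annexin A1, had 2 counts in liver, 474 in oWAT and 391 in sWAT (4.57, 1195 and 1019 CPM). FHL1, a LIM domain protein, had 14 counts in liver, 988 in oWAT and 1046 in sWAT (32.0, 2489.9 and 2725 CPM).

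Further families had a member on each side. The amine oxidase AOC1 had 1810 counts in liver, 0 in oWAT and 0 in sWAT (4136, 0 and 0 CPM). AOC3, an amine oxidase of the adipocyte surface, had 3 counts in liver, 146 in oWAT and 222 in sWAT (6.86, 368 and 578 CPM). ITIH1, an inter-alpha-trypsin inhibitor chain, had 1516 counts in liver, 0 in oWAT and 0 in sWAT (3464, 0 and 0 CPM), and ITIH5 had 13 counts in liver, 328 in oWAT and 750 in sWAT (29.7, 827 and 1954 CPM). In each of these 2 pairs the first was higher in liver and the second higher in both fat libraries, with the library total and with both other scalings. The sources used here do not say how reads shared by close paralogs were assigned.

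ACTB, cytoplasmic actin, had 684 counts in liver, 3991 in oWAT and 2330 in sWAT (1563, 10058 and 6069 CPM) and was higher in fat with all 3 scalings. PSAP, the precursor of the saposins of lysosomes, had 815 counts in liver, 2417 in oWAT and 1937 in sWAT (1862, 6091 and 5046 CPM) and was higher in fat with the library total alone.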
